A study of Mus musculus with 22 samples.

Results

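The 32 genes described here encode enzymes and regulators of cholesterol and fatty acid synthesis. They were chosen by name as a gene module, and all 32 were found among the 18487 genes of the table and among the 17275 genes kept for testing. The sterol arm held 22 genes and the fatty acid arm held 10. RNA came from E14, a mouse embryonic stem cell (ESC) line, exposed to 1 of 10 compounds or to none that the label names (NC), with 2 libraries for each of the 11 groups and 22 in all. NC served as the reference. Bromosporine binds bromodomains, Valproate inhibits histone deacetylases, the acetyltransferase inhibitors were Garcinol and CPTH2, and UNC0379 (against SETD8) and Chaetocin act on lysine methyltransferases of histones. MS023 inhibits type I arginine methyltransferases, DZNep (3-deazaneplanocin A) blocks the breakdown of S-adenosylhomocysteine and thereby lowers methylation broadly, and IOX1 inhibits 2-oxoglutarate oxygenases. The compound labelled OICR is not named further. The labels gave no dose, exposure time or vehicle, all groups came from the same line, and the study's methods grew ESCs in serum with LIF. Nothing said that the libraries came from separate cultures, so p-values here measure only the spread between these libraries.

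Cholesterol is built from acetyl-CoA through mevalonate, isoprenoid diphosphates and squalene, which is cyclised to lanosterol and trimmed to cholesterol in the endoplasmic reticulum. Fatty acids are built from the same acetyl-CoA, after carboxylation to malonyl-CoA, and are then elongated and desaturated. Both routes share the transcription factors SREBP1 and SREBP2, encoded by Srebf1 and Srebf2, which stay in the endoplasmic reticulum with SCAP while sterols are plentiful, held there by INSIG proteins, and are cleaved and sent to the nucleus when sterols run low. SREBP2 acts mainly on sterol genes and SREBP1 mainly on fatty acid genes.

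The values were normalized read counts, rounded to whole numbers and set to nearly the same distribution in every library, so that the median was 409 in each and totals ran from 38403767 to 38419709. The reads behind each library were therefore unknown, and no counting interval was computed. Between 1065 and 1707 genes were listed at 0 per library, none of them a member. Replicate libraries correlated at 0.923 to 0.945 (Pearson, across genes, which are not independent replicates), the lowest in DZNep. The 10 ESC marker genes were all above 0 in every NC, DZNep and Valproate library and summed to 214081 and 213620 in NC. Replicate numbers went with some members. Elovl6, Scd1 and Lpin1 were lower in replicate 2 than in replicate 1 in 11 of 11 groups, whereas Acat2, Mvk, Fdps, Fdft1, Nsdhl, Ebp, Acaca and Fasn were higher in replicate 2 in 11 of 11. For Fasn the median difference was 0.56 on the log2 scale and for Acaca it was 0.60.

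Per kilobase of merged exons, the desaturase Scd2 had the highest level of the module in NC (normalized read counts of 8243 and 6472 per kb), followed by Acly, which makes cytosolic acetyl-CoA from citrate (4844 and 5822 per kb). These libraries did not overlap. The next members in the order, Fasn (2655 ± 804 per kb, mean ± SD, n = 2), Srebf2 (2580 ± 253), Acat2 (2580 ± 288), Scd1 (2460 ± 297) and Hmgcs1 (2289 ± 304), had libraries that overlapped. Fdps followed (2177 ± 181), below both libraries of Srebf2 and of Acat2. At the low end stood Lpin1 (142.6 ± 15.2 per kb), Acss2 (125.9 ± 9.5) and Ggps1 (104.3 ± 0.749). Sterol and fatty acid genes were thus interleaved in this order.

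Across the 11 groups, 23 of the 32 members differed by a moderated F test over all 10 compounds (limma, Benjamini-Hochberg adjusted p under 0.05), against 29.7% of all genes tested. These were 18 of 22 sterol members and 5 of 10 fatty acid members. The 9 that missed the threshold were Mvk, Ggps1, Hsd17b7, Ebp, Acss2, Acaca, Fasn, Elovl6 and Lpin1. DZNep had the lowest group mean for 27 of the 32, where it had the lowest mean for 23% of all genes tested. MS023 had the highest group mean for 14 of the 32, 13 of them in the sterol arm, against 10.5% of all genes. In the following, a change is a difference in log2(normalized read count + 1) between group means with its standard error (SE), and the word called stands for an adjusted p below 0.05 together with more than a 2-fold difference.

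**Figure D1:**
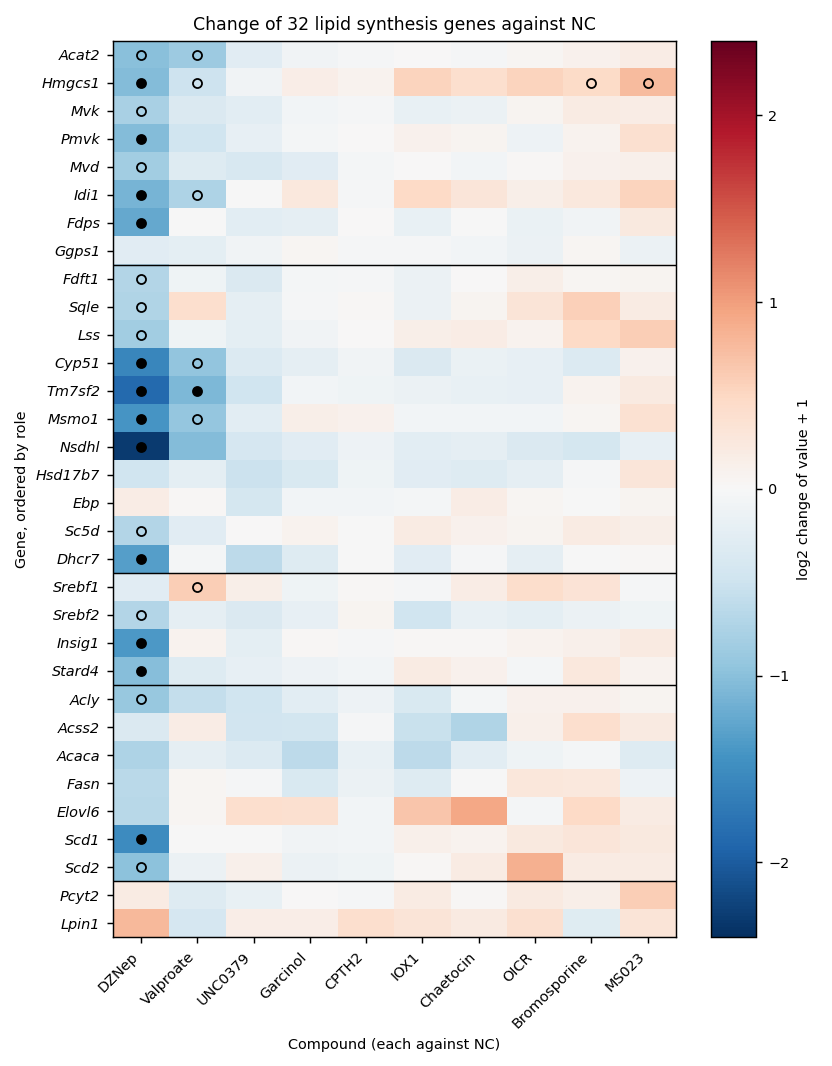
Change of the 32 members with each compound against NC on the log2(value + 1) scale, genes in rows ordered by role (lines separate mevalonate enzymes, squalene to cholesterol enzymes, regulators and transport, fatty acid enzymes and glycerolipid enzymes) and compounds in columns. Filled points mark genes called at an adjusted p under 0.05 and a fold over 2, and open points mark an adjusted p under 0.05 alone, with 22 marked members in the DZNep column, 7 with Valproate, 1 each with Bromosporine and MS023, and 0 in the other 6.

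DZNep lowered most of the module. Of 32 members, 12 were called lower, where 6.14% of all genes tested were, and 22 were lower at the adjusted p alone, where 12.8% of all genes were. By limma, 0 members were higher at that threshold, and 1, Lpin1, was higher at an unadjusted p under 0.05, where 10.7% and 16.6% of all genes were. The median change was -1.01 for the 22 sterol members and -0.65 for the 10 fatty acid members, beside -0.04 for all genes tested. By role, 7 of 8 mevalonate enzymes, 9 of 11 enzymes from squalene to cholesterol, 3 of 4 regulators and transport genes and 3 of 7 fatty acid enzymes fell, and 0 of 2 glycerolipid enzymes did. Both DZNep libraries lay below both NC libraries for 27 of 32 members (32.4% of all genes) and below all 20 other libraries for 21 of 32 (8.52% of all genes). Fitted on the 4 DZNep and NC libraries alone, 8 of the 22 still passed, namely Hmgcs1, Cyp51, Tm7sf2, Msmo1, Nsdhl, Dhcr7, Insig1 and Scd1. Without DZNep replicate 1, the fatty acid median was -0.42, and within replicate numbers 1 and 2 it was -0.57 and -0.70.

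**Figure D2:**
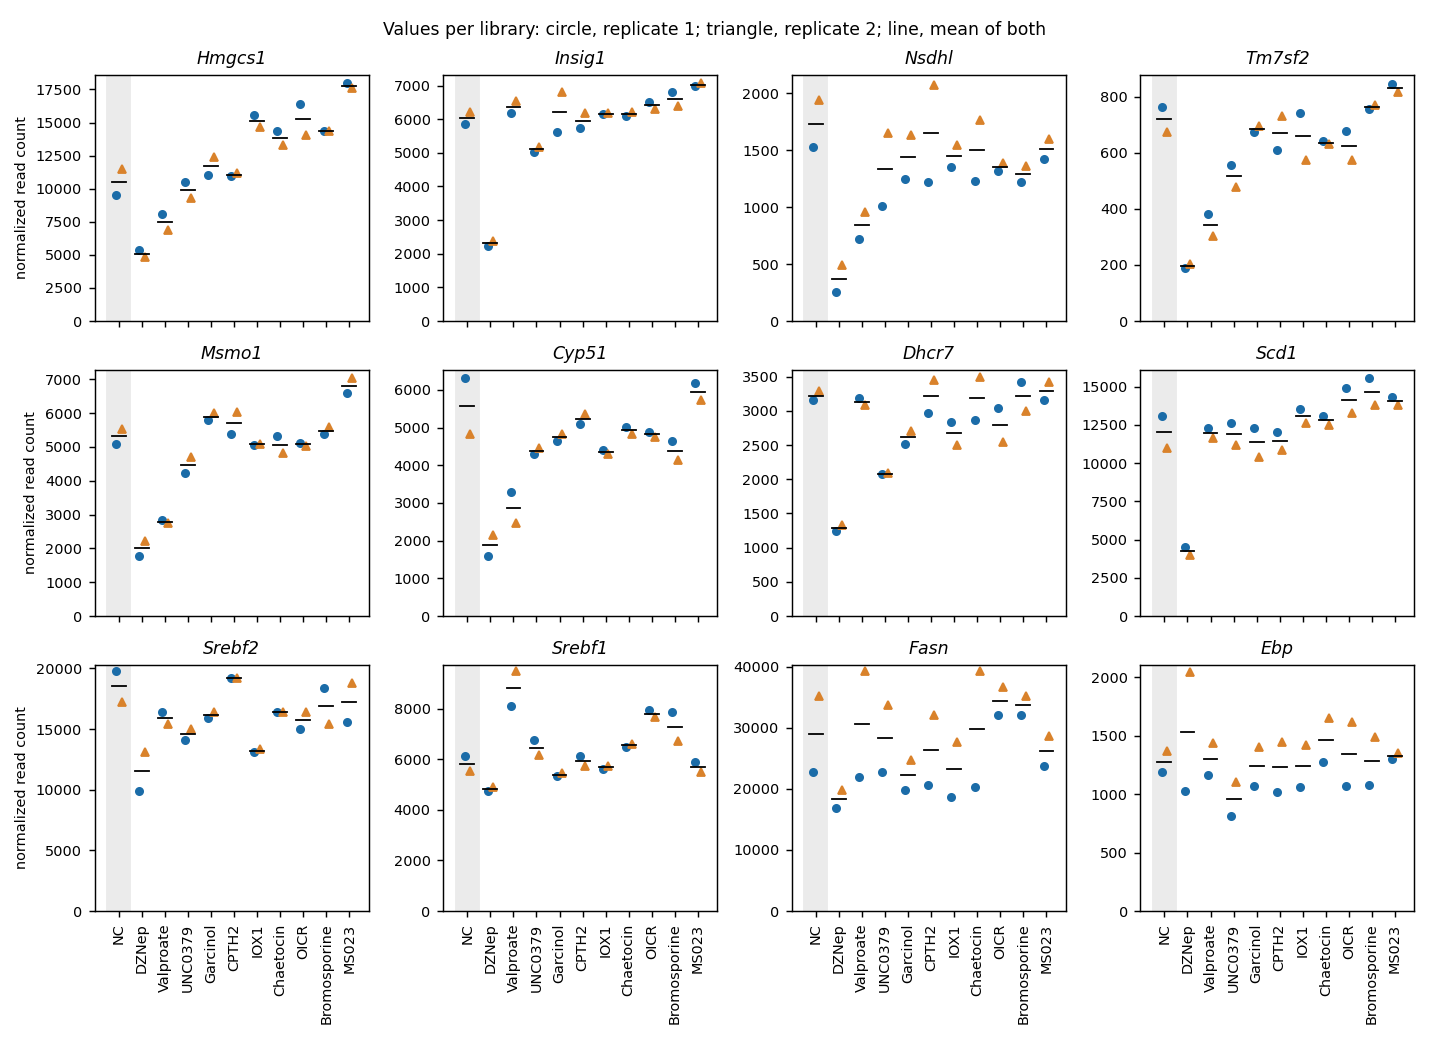
Normalized read count of 12 members in each of the 22 libraries, with the axis of each panel starting at 0, NC shaded, circles for replicate 1, triangles for replicate 2 and a line at the mean of both. In DZNep, Insig1 was at 2238 and 2392 and Scd1 at 4524 and 3957, below every other library, while the Fasn and Ebp panels show the difference between replicate numbers within groups.

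Among the mevalonate enzymes, Hmgcs1 makes HMG-CoA (chr13:119690379-119708260, plus strand, GENCODE M21 on mm10). Its normalized read count was 9529 and 11505 in the NC libraries and 5332 and 4853 in those of DZNep. The other 18 libraries ran from 6847 to 17970 with a median of 13703.5. The DZNep libraries thus stood below all others, and the change was -1.04 (SE 0.12, adjusted p = 6.38e-05), a mean of 48.4% of NC. Of the 31-base stretches of its longest transcript, 14.6% also occur in other genes, mainly the opposite-strand Gm48342.

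Pmvk, which adds the next phosphate to phosphomevalonate (chr3:89454541-89469013, plus strand), was at 1614 and 1727 in NC and at 681 and 977 in DZNep, with 1107 to 2305 and a median of 1624.5 in the other 18 libraries. The groups did not overlap, and the change of -1.03 (SE 0.16, adjusted p = 0.000416) placed it just past the 2-fold limit, at 49.6% of NC. Idi1 converts isopentenyl to dimethylallyl diphosphate (chr13:8885501-8892451, plus strand) and had 2225 and 3677 in NC, 1353 and 1287 in DZNep, and 1626 to 4522 with a median of 3187.5 elsewhere. Its NC libraries were far apart, yet both lay above DZNep, and the change was -1.12 (SE 0.22, adjusted p = 0.0025). A share of 32% of the 31-base stretches of Idi1 recurs in other genes, chiefly Gm13502, so its counts are uncertain.

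Fdps makes farnesyl diphosphate (chr3:89093588-89101959, minus strand). It was at 8622 and 9700 in NC, 3102 and 4914 in DZNep, and between 6912 and 11369 (median 8513.5) in the rest. Its change was -1.23 (SE 0.23, adjusted p = 0.00192), 43.8% of NC, and 13.6% of its stretches are found elsewhere, most often in the same-strand Gm43738. Acat2, the acetyl-CoA thiolase that opens the pathway, lay just short of the 2-fold limit with 6045 and 7080 in NC, 2981 and 3608 in DZNep and a mean of 50.2% of NC (adjusted p = 0.00334). For Acat2, 50.5% of stretches recur elsewhere, mainly in Acat3. Mvk (mevalonate kinase, -0.78, adjusted p = 0.0166) and Mvd (mevalonate diphosphate decarboxylase, -0.84, adjusted p = 0.00794) also fell. Both missed the threshold without some of the libraries, since the adjusted p for Mvk was 0.102 without DZNep replicate 1 and 0.129 without NC replicate 2, and for Mvd 0.0844 and 0.0696. Ggps1, which makes geranylgeranyl diphosphate for protein prenylation, was the mevalonate member that did not pass (495 and 490 in NC, 394 and 418 in DZNep, change -0.28, adjusted p = 0.224).

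The largest decreases of the module were those of Nsdhl, Tm7sf2 and Cyp51, which act after squalene. As a role, the 11 enzymes from squalene to cholesterol had a median change of -0.84, beside -1.01 for the 8 mevalonate enzymes. Nsdhl, a decarboxylating dehydrogenase that helps remove methyl groups from the sterol ring (chrX:72918557-72958514, plus strand), was at 1530 and 1939 in NC and at 253 and 489 in DZNep. The other 18 libraries held 720 to 2075 with a median of 1358. Its mean in DZNep was 21.4% of NC, with a change of -2.29 (SE 0.33, adjusted p = 0.000318). Tm7sf2, a sterol reductase (chr19:6062821-6068373, minus strand), had 765 and 674 in NC, 188 and 203 in DZNep, 382 and 305 in Valproate, and 480 to 847 (median 676) in the remaining 16. The libraries thus formed separate levels, DZNep lowest and Valproate next. The DZNep change was -1.87 (SE 0.15, adjusted p = 6.6e-06), 27.2% of NC. Exons of Tm7sf2 overlap those of Vps51 on the same strand.

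Cyp51, the lanosterol demethylase (chr5:4081145-4104746, minus strand), had 6304 and 4816 in NC and 1598 and 2160 in DZNep, and the other 18 libraries ran from 2464 to 6181 with a median of 4699. Every DZNep value lay below every other value, with a change of -1.57 (SE 0.16, adjusted p = 2.34e-05). Msmo1, the oxidase that acts with Nsdhl (chr8:64718139-64733792, minus strand), had 5099 and 5530 in NC, 1775 and 2226 in DZNep and 2746 to 7023 (median 5224.5) elsewhere. Again DZNep stood apart, at 37.6% of NC, with a change of -1.42 (SE 0.11, adjusted p = 4.92e-06). Dhcr7, which makes the last reduction to cholesterol in its branch (chr7:143823145-143848410, plus strand), had 3157 and 3291 in NC, 1249 and 1335 in DZNep, and 2077 to 3492 (median 2984.5) in the others. Its change was -1.32 (SE 0.12, adjusted p = 1.37e-05), 40.1% of NC.

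The other enzymes from squalene to cholesterol had smaller decreases or none. Sqle, the squalene epoxidase (chr15:59315077-59331192, plus strand), was at 5580 and 6151 in NC, 3057 and 4106 in DZNep and 4471 to 8776 (median 6736.5) in the other 18. The groups did not overlap, and the change was -0.73 (SE 0.20, adjusted p = 0.0175). Lss, which closes the sterol rings (-0.84, adjusted p = 0.00119), Fdft1, which joins farnesyl units into squalene (-0.71, adjusted p = 0.00816), and Sc5d, a late desaturase (-0.69, adjusted p = 0.00382), also fell. Of the stretches of Fdft1, 36.8% recur in other genes, mainly the overlapping opposite-strand Ctsb. Sqle and Fdft1 missed the threshold without DZNep replicate 1 (adjusted p = 0.144 and 0.0864), and Sqle also without NC replicate 1 (0.0616) or NC replicate 2 (0.0902). The members that did not pass were Hsd17b7, a ketoreductase (680 and 803 in NC, 452 and 629 in DZNep, adjusted p = 0.277), and Ebp, a sterol isomerase. Ebp was at 1187 and 1369 in NC and at 1024 and 2047 in DZNep, which overlap (change 0.18, SE 0.32, adjusted p = 0.724).

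Among regulators and transport genes, Insig1, the sterol-regulated anchor of SCAP (chr5:28071363-28078662, plus strand), was at 5852 and 6227 in NC and at 2238 and 2392 in DZNep. The other 18 libraries lay between 5030 and 7085 with a median of 6204. The gap to DZNep was thus wide beside the narrow range of all others, and the change was -1.38 (SE 0.09, adjusted p = 3.23e-06). Stard4, a carrier of cholesterol between membranes, was at 2550 and 2586 in NC, 1379 and 1157 in DZNep and 1931 to 3162 (median 2578.5) elsewhere, a change of -1.02 (SE 0.12, adjusted p = 6.02e-05). Srebf2 (chr15:82147181-82205379, plus strand) was at 19820 and 17254 in NC, 9907 and 13113 in DZNep, and 13113 to 19230 (median 16180) in the rest, so that the higher DZNep value equalled the lowest other value, in IOX1. It fell by 0.70 on the log2 scale (SE 0.14, adjusted p = 0.0023). Srebf1 (chr11:60199089-60222581, minus strand) had 6127 and 5541 in NC, 4738 and 4926 in DZNep and 5328 to 9518 (median 6328.5) elsewhere. The DZNep values were the lowest of all 22, yet the change of -0.27 (SE 0.10) did not pass (adjusted p = 0.0696), although it did with no filter on low values (0.0464) and against the mean of the other groups (-0.42, adjusted p = 0.000832). Exons of Srebf1 overlap Rai1 on the opposite strand, and whether reads were counted by strand was not given in the sources used here.

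In the fatty acid arm, Scd1, a desaturase that makes oleate (chr19:44394455-44407879, minus strand), was the only called member. It was at 13062 and 11011 in NC, 4524 and 3957 in DZNep and 10421 to 15534 (median 12635) in the other 18. The DZNep libraries were less than any other by a wide gap, and the change was -1.50 (SE 0.12, adjusted p = 6.38e-06), 35.2% of NC. Its neighbour Scd2 had 45038 and 35363 in NC and 22913 and 17620 in DZNep (change -0.99, SE 0.24, adjusted p = 0.00825). Both share sequence with Scd3, at 8.3% and 6.86% of stretches. Acly had 25574 and 30736 in NC and 15816 and 14022 in DZNep (change -0.91, SE 0.23, adjusted p = 0.0103). Scd2 and Acly missed the threshold without some of the libraries: for Scd2 the adjusted p was 0.0929 without NC replicate 1 and 0.0621 without DZNep replicate 2, and for Acly it was 0.055 without DZNep replicate 2 and 0.074 without NC replicate 2.

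Fasn, the synthase that builds palmitate (chr11:120805846-120824547, minus strand), had values of 22843 and 35296 in NC, 16819 and 19758 in DZNep and 18718 to 39247 (median 28156.5) elsewhere. DZNep was below NC in both libraries, but the spread within groups was wide, with replicate 2 the higher in every group. The change of -0.64 (SE 0.36) did not pass (adjusted p = 0.215), although it did with the replicate number as a block (0.0119). Acaca, which makes malonyl-CoA (-0.75, SE 0.46, adjusted p = 0.258), Elovl6, which elongates palmitate (-0.66, SE 0.49, adjusted p = 0.357), and Acss2, which activates acetate (-0.35, SE 0.38, adjusted p = 0.537), had lower means with large errors. Acaca and Elovl6 also differed by replicate number in 11 of 11 groups, which this fit did not model. Acaca was at 3887 and 5332 in NC and 2024 and 3631 in DZNep. Elovl6 was at 4025 and 2475 in NC and 2991 and 1340 in DZNep. Within each replicate number both were thus lower in DZNep. Acss2 was lower in replicate 1 only (1211 and 1348 in NC, 717 and 1392 in DZNep). In Acaca, 56.8% of stretches recur in other genes, mainly Gm5182. The glycerolipid enzymes had higher means in DZNep. Lpin1, a phosphatidate phosphatase, was at 1482 and 1274 in NC and 2710 and 2059 in DZNep (change 0.78, SE 0.29, adjusted p = 0.0657). Pcyt2, of phosphatidylethanolamine synthesis, was at 2515 and 3015 in NC and 2874 and 3426 in DZNep (change 0.19, adjusted p = 0.406).

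Markers of other cell types also moved in DZNep. The summed level of the 10 ESC markers was 275811 and 284402 in DZNep, with Zfp42 and Utf1 called higher, Fgf4 lower at the adjusted p alone (-0.57, adjusted p = 0.0267) and Tdgf1 at 25722 and 15640 in NC and 11541 and 8477 in DZNep. Nanog, which was not called, made 92251 and 123367 of the DZNep sums, against 44793 and 59405 in NC. Dppa5a was at 28606 and 30833 in DZNep, against 41903 and 39262 in NC. The 5 fibroblast markers summed to 524 and 625 in NC and to 1103 and 1158 in DZNep. Of these sums Postn, which was at 0 in some libraries of other groups, made 474 and 559 in NC and 677 and 819 in DZNep. Col1a1 (24 and 24 to 327 and 228) and Thy1 (12 and 11 to 66 and 64) were called higher, and Dcn was at 0 in all 4 libraries of NC and DZNep. The 3 trophoblast markers measured summed to 142 and 428 in NC and to 934 and 569 in DZNep, with Gata3 and Krt8 called higher. The 3 neural markers summed to 2345 and 2179 in NC and to 955 and 786 in DZNep, with Sox1 and Nes called lower. Of 4 primitive endoderm markers (432 and 345 in NC, 347 and 654 in DZNep), Dab2 was called higher and Gata4 lower, and 4 mesoderm markers summed to 165 and 189 in NC and 259 and 273 in DZNep. The part of these in the decrease of the lipid genes was not tested, and in such bulk libraries fewer cells of a type and less RNA per cell cannot be told apart.

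Valproate lowered a narrower set of sterol enzymes. Of 32 members, 1 was called lower (2.55% of all genes were), 6 were lower at the adjusted p alone (5.18% of all genes) and 1 was higher (5.13% of all genes). All 6 were sterol members, and the sterol median was -0.29 beside -0.07 in the fatty acid arm and -0.02 over all genes. Without Valproate replicate 2 the fatty acid median was -0.28. That setting compares replicate 1 with both NC libraries, and several fatty acid members differed by replicate number, so it does not compare the arms. Within replicate numbers 1 and 2 the fatty acid medians were -0.16 and 0.04, and the sterol medians were -0.22 and -0.45. Both Valproate libraries lay below both NC libraries for 16 of 32 members, as they did for 27.6% of all genes. The called gene was Tm7sf2, whose 382 and 305 in Valproate were 47.7% of NC (change -1.07, SE 0.15, adjusted p = 0.000898). Cyp51 was at 3282 and 2464 (-0.95, adjusted p = 0.00215) and Msmo1 at 2834 and 2746 (-0.93, adjusted p = 0.000195). Nsdhl, which works beside them, was at 720 and 960, at 48.4% of NC, but with a large error (-1.05, SE 0.33) it did not pass (adjusted p = 0.0602).

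Earlier in the pathway, Acat2 (2945 and 4302, change -0.88, adjusted p = 0.0148), Idi1 (1818 and 1626, change -0.73, adjusted p = 0.0485) and Hmgcs1 (8109 and 6847, change -0.49, adjusted p = 0.0191) fell with Valproate. Several genes that fell with DZNep stayed near NC in Valproate without passing the test. Insig1 was at 6181 and 6554 (change 0.08, SE 0.09), Dhcr7 at 3185 and 3085 (-0.04, SE 0.12), Fdps at 8179 and 10033 (-0.01, SE 0.23) and Scd1 at 12283 and 11619 (-0.01, SE 0.12). Sqle, at 7425 and 8010, had a higher mean than NC (change 0.40, SE 0.20, adjusted p = 0.248), Srebf2 was at 16436 and 15374 (-0.22, adjusted p = 0.342) and Fasn at 21898 and 39247 (0.05, adjusted p = 0.969). Srebf1 was the member that rose, from 6127 and 5541 to 8100 and 9518, above every library of the other groups (change 0.59, SE 0.10, adjusted p = 0.00263). Without NC replicate 2, 4 members rather than 7 passed the adjusted p, since Acat2 (0.11), Hmgcs1 (0.173) and Idi1 (0.394) did not. Acat2 was also lost without Valproate replicate 1 (0.156), Hmgcs1 without Valproate replicate 2 (0.13) and Idi1 without either (0.12 and 0.162), with no filter on low values (0.0566) and after rescaling (0.0574). None of the 7 passed in a fit of the Valproate and NC libraries alone. The ESC markers summed to 232168 and 238582 in Valproate, with Utf1 called higher (1.32). The 3 neural markers summed to 1875 and 1904, against 2345 and 2179 in NC. Of these, Sox1 was called lower (-1.21). Nes stayed near NC (1600 and 1606, against 1555 and 1613), and Pax6 was at 23 and 15 (48 and 52 in NC) without being called. The fibroblast markers summed to 1050 and 369, of which Postn made 658 and 0, and Thy1 was called higher (358 and 303). The part of these markers was not tested.

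**Figure D3:**
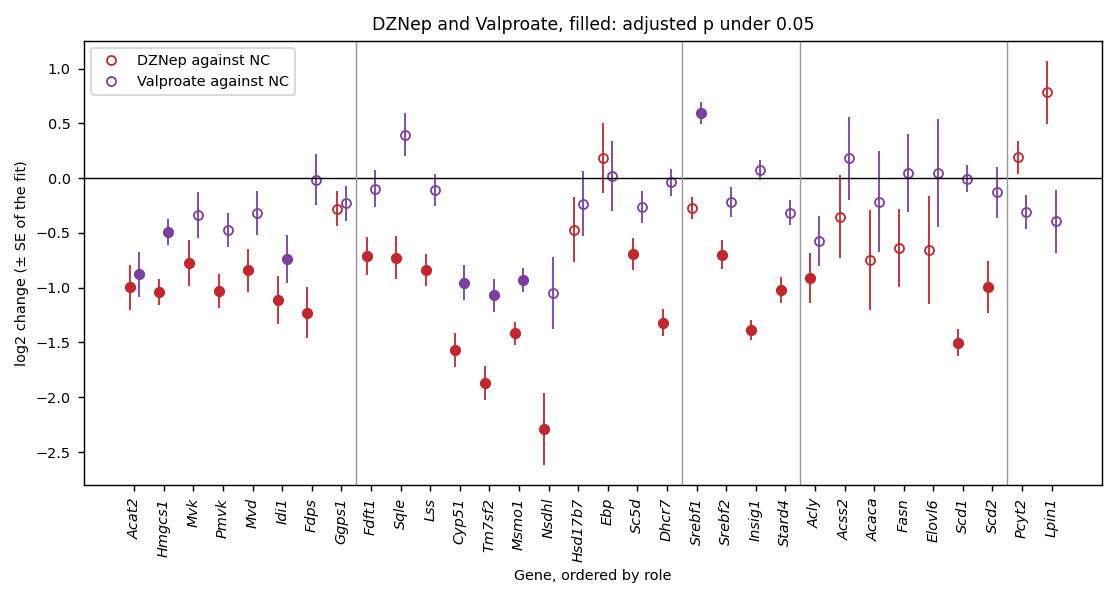
Change against NC with DZNep (red) and Valproate (purple) for the 32 members on the log2(value + 1) scale, in order of role, with bars for ± SE of the fit and filled points for an adjusted p under 0.05. The points for Cyp51, Tm7sf2 and Msmo1 are below 0 for both compounds, whereas Insig1, Dhcr7, Fdps and Scd1 are far below 0 with DZNep only and between -0.04 and 0.08 with Valproate.

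Both comparisons share the NC libraries, so the compounds were also compared with each other, a contrast chosen after their changes had been seen. Between DZNep and Valproate, 6 members were called lower in DZNep (5.92% of all genes were), 18 were lower at the adjusted p alone (12.4%) and 2 were higher (10.8%). The called members were Scd1 (-1.50, SE 0.12, adjusted p = 8.65e-06), Insig1 (-1.46, SE 0.09, adjusted p = 2.04e-06), Dhcr7 (-1.28, SE 0.12, adjusted p = 2.16e-05), Nsdhl (-1.24, SE 0.33, adjusted p = 0.0161), Fdps (-1.21, SE 0.23, adjusted p = 0.00219) and Sqle (-1.12, SE 0.20, adjusted p = 0.00141). Tm7sf2 (-0.80), Cyp51 (-0.61) and Msmo1 (-0.49) were also lower in DZNep than in Valproate at the adjusted p. For Acat2 (-0.12, SE 0.21, adjusted p = 0.752) and Idi1 (-0.38, SE 0.22, adjusted p = 0.241) no difference between the compounds was detectable. Lpin1 (1.18, SE 0.29, adjusted p = 0.0104) was called higher in DZNep and Pcyt2 (0.50, SE 0.15, adjusted p = 0.032) was higher. Called members went from 7 to 4 without DZNep replicate 1, members past the adjusted p went from 20 to 13 without that library or without Valproate replicate 1, and in a fit of these 4 libraries alone 0 passed.

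The other 8 compounds moved few members past the threshold. MS023 and Bromosporine each raised Hmgcs1, where 0.863% and 1.61% of all genes were higher. Hmgcs1 was at 17970 and 17604 in MS023, above every other library (change 0.76, SE 0.12, adjusted p = 0.00729), and at 14395 and 14395 in Bromosporine (change 0.46, SE 0.12, adjusted p = 0.0418). Hmgcs1 missed the threshold in MS023 without MS023 replicate 1 (adjusted p = 0.0627) or NC replicate 1 (0.0901), and in Bromosporine without Bromosporine replicate 1 (0.178), replicate 2 (0.144) or NC replicate 1 (0.339). In MS023, 19 of 22 sterol members were above NC with a median of 0.18, where 47.5% of all genes were above it. At an unadjusted p under 0.05, 7 members were higher in MS023 (6.69% of all genes) and 6 in Bromosporine (8.46%). Lss was at 3317 and 3492 in MS023 against 2034 and 2521 in NC (change 0.59, SE 0.15, adjusted p = 0.0591), and Sqle at 8776 and 8581 in Bromosporine (change 0.57, SE 0.20, adjusted p = 0.125). Among the cell type markers, Sox1 was called lower in MS023 (230 and 246, against 742 and 514 in NC), where the neural markers summed to 1526 and 1484. In Bromosporine, Utf1 was called higher (1.55) and Col1a1 lower (-1.74). The part of these was not tested.

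In OICR, 0 members passed the adjusted p (limma), as 0.637% of all genes did in either direction, and 3 had an unadjusted p under 0.05, where 10.7% of all genes had. Scd2 was at 76167 and 67722 in OICR, above the other 20 libraries (change 0.85, SE 0.24, adjusted p = 0.151). Hmgcs1 was at 16404 and 14091 (change 0.54, adjusted p = 0.0663) and Srebf1 at 7955 and 7666 (change 0.42, adjusted p = 0.0871). The same test passed 0 members in IOX1 (5 at an unadjusted p under 0.05), Chaetocin (1), Garcinol (1) and CPTH2 (0), where 0.127%, 0.0174%, 0.00579% and 0.00579% of all genes passed and 12.4%, 4.72%, 3.62% and 0.944% had such an unadjusted p. In IOX1, Hmgcs1 was at 15590 and 14693 (change 0.53, SE 0.12, adjusted p = 0.103). The Chaetocin member with an unadjusted p under 0.05 was Hmgcs1, at 14395 and 13316 (change 0.40, SE 0.12, adjusted p = 0.803). Both libraries of Hmgcs1 lay above both NC libraries in MS023, Bromosporine, OICR, IOX1 and Chaetocin. These comparisons all use the same 2 NC libraries (9529 and 11505), so they are not separate observations. The share of all genes that lay above NC in this way was not computed. The largest change in Chaetocin was in Elovl6, at 7505 and 4770 against 4025 and 2475 in NC (change 0.92, SE 0.49, adjusted p = 0.803).

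UNC0379 gave small differences, nearly all in 1 direction. Of the 22 sterol members, 21 had a mean below NC (51.5% of all genes did), with a median of -0.26 within a range of -0.63 to 0.00, and the medians within replicate numbers 1 and 2 were -0.31 and -0.25. None passed the adjusted p (limma), as for 0% of all genes, and 5 were lower at an unadjusted p under 0.05, where 3.12% of all genes were. Dhcr7 was the lowest, at 2077 and 2090 against 3157 and 3291 in NC (change -0.63, SE 0.12, adjusted p = 0.23). Apart from DZNep, those were the lowest Dhcr7 values of any library. The fatty acid median was -0.02.

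**Figure D4:**
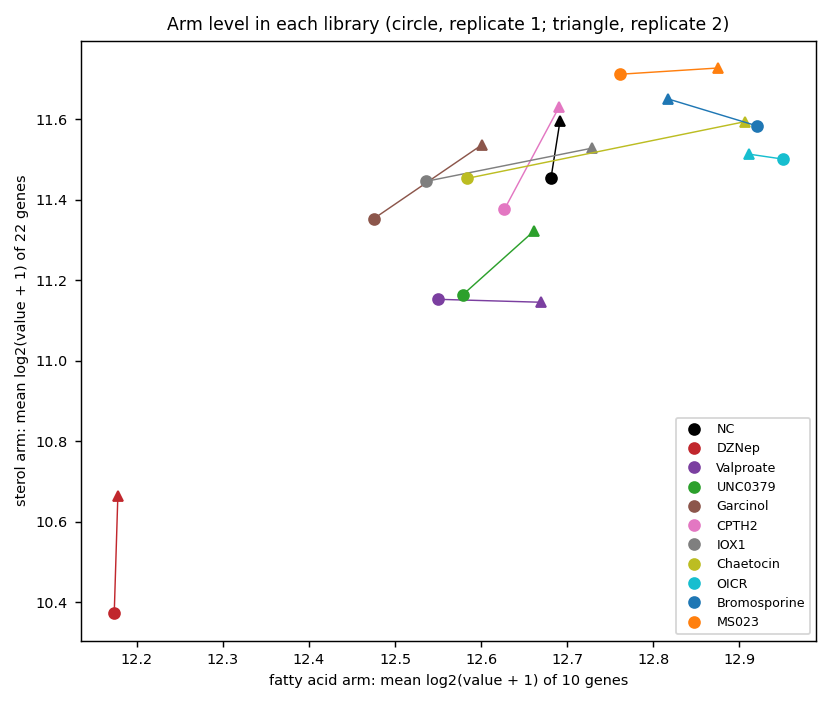
Mean log2(value + 1) of the 22 sterol members (vertical) against that of the 10 fatty acid members (horizontal) in each of the 22 libraries, circles for replicate 1 and triangles for replicate 2, with a line joining the libraries of a group and axes that do not start at 0. The DZNep libraries lie at the lower left, at 10.37 and 10.66 for the sterol arm, and Valproate and UNC0379 lie lower than the rest on the sterol axis but within the range of the others on the fatty acid axis.

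The arms were then compared over the 11 groups. The mean level of the sterol arm was 11.45 and 11.60 in NC on the log2(value + 1) scale, 10.37 and 10.66 in DZNep, 11.15 and 11.14 in Valproate, 11.16 and 11.32 in UNC0379 and 11.71 and 11.73 in MS023. The DZNep libraries were lowest, both Valproate libraries and both UNC0379 libraries lay below NC, and MS023 lay above it. The fatty acid arm was at 12.68 and 12.69 in NC, 12.17 and 12.18 in DZNep, 12.55 and 12.67 in Valproate, 12.95 and 12.91 in OICR and 12.92 and 12.82 in Bromosporine, so that DZNep was lowest there too and the highest group was OICR. The sterol minus fatty acid level was -1.23 and -1.10 in NC, -1.80 and -1.51 in DZNep, -1.40 and -1.52 in Valproate and -1.42 and -1.34 in UNC0379, lower than NC in each. OICR was also lower, at -1.45 and -1.40, with a sterol level within the NC range (11.50 and 11.51) and a fatty acid level above it. These are descriptions of arms whose genes differ in level and number.

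Genes of the same pathways outside the module were taken from lists written for this comparison, and each count is to be read beside the 12.8% of all genes that were lower and the 10.7% that were higher with DZNep. Fads1, a fatty acid desaturase gene, was at 4104 and 3414 in NC and 1880 and 1506 in DZNep and was called lower (change -1.15, SE 0.19, adjusted p = 0.000887). Its relative Fads2 also fell with DZNep (2968 and 3253 in NC, 1380 and 1853 in DZNep, change -0.96, adjusted p = 0.0155), as did Lbr, a sterol reductase and lamin B receptor (7127 and 6269 in NC, 4818 and 2738 in DZNep, change -0.88, adjusted p = 0.00541). Fads1, Fads2 and Lbr are named because they fell, and not every gene listed with them did. Of 10 genes of the isoprenoid branches, 3 fell and 1 rose with DZNep, and Coq2, of ubiquinone synthesis, was called (-1.19). Of 12 genes of sterol uptake, efflux and storage, 2 fell with DZNep, a share near that of all genes, with the lipoprotein receptor gene Vldlr called at 625 and 463 in NC and 109 and 99 in DZNep (-2.36). Vldlr was called with Valproate too (-1.60), where the efflux gene Abcg1 (1.56) and the cholesterol esterifying Soat1 (1.30) were called higher. The Valproate libraries were far apart, at 1145 and 476 for Soat1 (316 and 283 in NC) and 1728 and 1065 for Abcg1 (520 and 407 in NC). In either direction, 5.28% of all genes were called with Valproate and 3.34% with Bromosporine. With Bromosporine, Mylip (1.02), which encodes a ubiquitin ligase, was called higher and the lysosomal lipase gene Lipa lower (-1.30).

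The next counts also stand beside the 12.8% of all genes that were lower and the 10.7% that were higher with DZNep. Of 17 further genes of fatty acid synthesis, 8 fell and 1 rose with DZNep. The called ones were Mid1ip1, an activator of acetyl-CoA carboxylase (-2.34), Thrsp, its relative (-2.22), the citrate carrier gene Slc25a1 (-1.09) and Acsl3 (-1.12). Thrsp was called with Valproate (-2.70), and Acacb (-1.51), Mid1ip1 (-1.18) and Mlxipl (-1.57) with Bromosporine. Calls in either direction made 5.28% of all genes with Valproate, 3.34% with Bromosporine and 0.973% with MS023. The 2 DZNep libraries of Thrsp were far apart, at 17 and 172. Of 9 genes of fatty acid oxidation tested, 2 fell with DZNep and 0 rose. Cpt1a, the gate of mitochondrial import, was called lower (7813 and 6428 in NC, 2812 and 2125 in DZNep, change -1.54). Of 12 genes of glycerolipid synthesis, 1 rose with DZNep. That gene, the triglyceride-forming Dgat2, was at 33 and 41 in NC and was called higher with DZNep (230 and 154), Valproate (191 and 169) and MS023 (182 and 425). Lpin3 was also called higher with Valproate (1.25).

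Promoters were examined because most of the sterol members moved together. RefSeq windows of GRCm38.p6, from 250 bases before to 50 after each start, matched 25 of the 32 members by symbol. Fdps, Fdft1, Sqle, Stard4, Scd1, Scd2 and Pcyt2 were not matched. 3 motifs were searched on both strands: the sterol regulatory element TCACNCCAC, bound by SREBPs, the CCAAT box, CCAAT, bound by NF-Y, and the E-box CACGTG. The sterol regulatory element in these letters was found in 1 of 25 members, Hmgcs1, and in 1.44% of 27025 genes with windows. CCAAT was found in 21 of 25 members (84%) and in 41.1% of all genes, the exceptions being Acat2, Acaca, Elovl6 and Lpin1. CACGTG was found in 4 of 25 (16%), namely Hsd17b7, Sc5d, Dhcr7 and Insig1, and in 8.09% of all genes. By single windows these shares were 1.24%, 37.4% and 7.15% of 32851. A match is a run of letters and not a measured binding site.

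**Figure D5:**
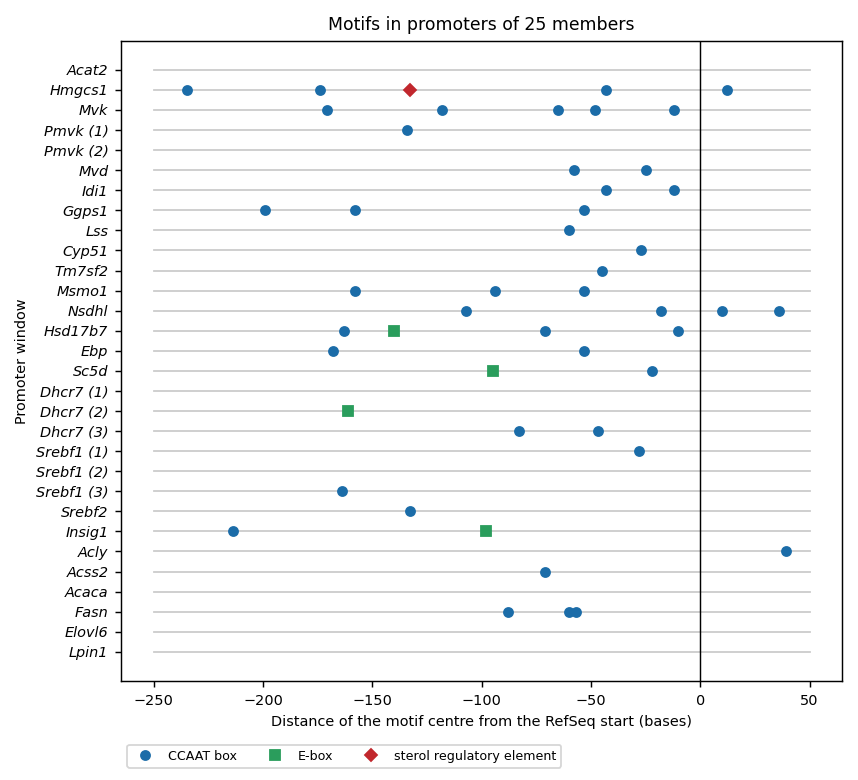
Position of the motif centres, in bases from the RefSeq start at 0, in the promoter windows of the 25 matched members, with a row for each window and numbered rows where a gene has several. CCAAT boxes (circles) lie upstream of the start in most sterol members, with 5 in Mvk and 3 in Hmgcs1. Hmgcs1 has a further box just after the start. The E-box (squares) is found in 4 members, and the sterol regulatory element (diamond) in Hmgcs1.

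The bases just before the start are printed for 4 sterol members with different DZNep changes: Hmgcs1 (called, with the sterol element), Nsdhl (the largest fall), Pmvk (just past the 2-fold limit) and Ebp (no fall). They are RefSeq sequence of GRCm38.p6 and lie outside annotated exons. Capitals mark CCAAT, or its reverse complement ATTGG, and in Hmgcs1 the sterol element TCACCCCAC. Hmgcs1 spans chr13:119690101-119690350 on the plus strand, Nsdhl chrX:72918412-72918520 on the plus strand, Pmvk chr3:89454291-89454540 on the plus strand and Ebp chrX:8193513-8193762 on the minus strand.
Hmgcs1: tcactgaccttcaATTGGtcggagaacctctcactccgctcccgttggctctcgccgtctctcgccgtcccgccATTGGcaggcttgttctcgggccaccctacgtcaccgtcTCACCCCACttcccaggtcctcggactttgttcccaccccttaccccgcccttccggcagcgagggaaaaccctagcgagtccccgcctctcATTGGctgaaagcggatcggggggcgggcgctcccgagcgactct
Nsdhl: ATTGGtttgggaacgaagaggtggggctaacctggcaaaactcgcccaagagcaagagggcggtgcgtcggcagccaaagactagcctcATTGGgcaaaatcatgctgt
Pmvk: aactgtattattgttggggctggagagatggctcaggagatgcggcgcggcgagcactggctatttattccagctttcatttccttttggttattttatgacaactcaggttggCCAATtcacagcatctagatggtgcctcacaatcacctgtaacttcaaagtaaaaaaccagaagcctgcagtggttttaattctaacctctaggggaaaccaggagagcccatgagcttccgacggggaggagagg
Ebp: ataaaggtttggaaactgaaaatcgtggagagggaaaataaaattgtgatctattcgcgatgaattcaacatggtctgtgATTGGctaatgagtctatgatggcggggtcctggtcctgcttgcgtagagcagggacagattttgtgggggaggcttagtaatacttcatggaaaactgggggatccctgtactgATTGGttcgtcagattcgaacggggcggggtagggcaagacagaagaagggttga
Hmgcs1 shows 3 CCAAT boxes here and the sterol element between them, whereas Nsdhl and Ebp each show 2 boxes and Pmvk 1. The Nsdhl stretch is the shorter, at 109 bases against 250, because an exon of another gene lies before it. Over their whole windows Hmgcs1 and Nsdhl each held 4 boxes, Ebp 2 and Pmvk at most 1.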

How the data were processed

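RNA-seq was measured in 22 libraries of E14 cells, 2 per group, grouped by the treatment and title labels. Per the labels, mRNA was enriched with oligo-dT beads and mm10, Bowtie2 2.2.5 and RSEM were used. The deposited values are scores: read counts per gene that the authors normalized with EDASeq 2.4.1 at its full setting (Ensembl 81 index) and rounded. The study's methods, which do not mention the compounds, also give a TEtranscripts route, and which route made the table was not stated. This step equalizes distributions, hides depth and removes any change shared by most genes. A deposited table of group means was not used. Some genes of these pathways are not reported here.

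Genes with at least 10 in at least 2 libraries were kept (17275 of 18487). log2(value + 1) was fitted with limma 3.58.1 in R 4.3.3, with 11 group means over all 22 libraries, a variance trend and 11 residual degrees of freedom. P-values are two-sided and Benjamini-Hochberg adjusted within each contrast. The fit was tried on simulated data with independent noise and large planted changes. That trial does not cover smaller changes or differences shared by replicate number. The members, lists and tests were chosen with earlier results of these data known. NC and DZNep values of each library, with the lowest, median and highest of the others, are given for members called with any compound and for Srebf1, Srebf2, Insig1, Hmgcs1, Sqle, Fasn and Scd1. Others are named by role, call or order, some after their values were seen. Shared sequence is the percentage of 31-base stretches of a gene's longest GENCODE M21 transcript, on either strand, found in other genes. Alternatives were a pseudocount of 10, no filter, only the compared libraries, the replicate number as a block, the other groups as reference, median-ratio rescaling and leaving out each library.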

Additional observations from a re-analysis of the deposited data

How the results depend on the processing

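Full-quantile values hide depth, so nothing here could be weighted by reads, and 2 libraries per group limit every error. Fitted on the compared libraries alone, 8 members rather than 22 passed the adjusted p with DZNep, 0 with Bromosporine, MS023 or Valproate, 0 were called with Valproate, and 0 were called or passed between DZNep and Valproate. With the other groups' mean as reference, 8 passed with Bromosporine, 11 with MS023, 1 with IOX1 and 2 with OICR, and 0 were called with Valproate. Median-ratio rescaling gave 0 with Bromosporine and 3 with MS023. A pseudocount of 10 and no filter moved no count of calls by over 1.5 times. The cause of these differences was not tested.

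The labels give replicates 1 and 2 only as numbers and do not say what libraries of the same number share. Replicate differences of 2 groups correlated at 0.0535 to 0.298 across genes (median 0.196, over 0.1 in 51 of 55 pairs). With the replicate block, 28 members passed with DZNep, 14 with Valproate (2 called), 6 with Bromosporine, 5 with MS023 and 2 each with IOX1 and OICR. Among the members followed singly in this setting, Fasn (adjusted p = 0.0119) and Srebf1 (0.0323) then passed with DZNep and Sqle (0.0322) with Valproate. The other members gained are not named here, nor is the direction of the 28 given.

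The other groups' mean as reference gave sterol medians of 0.25 with Bromosporine, 0.16 with Chaetocin, 0.10 with CPTH2, -0.98 with DZNep, 0.058 with Garcinol, 0.14 with IOX1, 0.35 with MS023, 0.15 with OICR and -0.13 with UNC0379, and fatty acid medians of 0.30 with Bromosporine and -0.54 with DZNep. Rescaling gave sterol medians of 0.055 with Bromosporine, 0.020 with Chaetocin and -0.96 with DZNep. With Valproate, Srebf2 turned to 0.014 and Scd1 to 0.065 against the other groups, and Scd1 to 0.038 after rescaling, all near 0.

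Leaving out 1 library at a time, the passing members ranged from 18 to 20 with DZNep, 4 to 7 with Valproate, 0 to 1 with Bromosporine and 0 to 1 with MS023, and those called from 10 to 15 with DZNep and 1 to 2 with Valproate. Between DZNep and Valproate the ranges were 4 to 7 called and 13 to 18 passing. Fasn with Valproate turned to -0.27 without NC replicate 1 and to -0.37 without Valproate replicate 2, and Scd1 to 0.12 and 0.035. Fasn ranged from -0.37 to 0.47 and Scd1 from -0.13 to 0.12. Sterol medians ranged from -1.06 to -0.84 with DZNep, -0.40 to -0.23 with Valproate, -0.38 to -0.19 with UNC0379, 0.11 to 0.27 with MS023, -0.0044 to 0.13 with Bromosporine, -0.095 to 0.073 with Chaetocin, -0.13 to 0.12 with CPTH2, -0.16 to 0.010 with Garcinol, -0.14 to 0.0021 with IOX1 and -0.12 to 0.056 with OICR. Fatty acid medians ranged from -0.78 to -0.42 with DZNep, -0.28 to -0.034 with Valproate, -0.12 to -0.039 with UNC0379, 0.05 to 0.24 with MS023, 0.16 to 0.25 with Bromosporine, -0.12 to 0.22 with Chaetocin, -0.11 to 0.068 with CPTH2, -0.15 to -0.08 with Garcinol, -0.14 to 0.05 with IOX1 and 0.19 to 0.25 with OICR.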
